A study of Mus musculus with 22 samples.

Results

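The natriuretic peptides and the load stress genes of the heart were followed in control hearts and in hearts that lacked Ronin (Thap11), a zinc finger transcription factor. A list of 8 genes was taken by symbol, not by a threshold on their values. Of these 8 genes, 6 had a probe in the values used (11 probes in all, of 19057 genes with a probe), and Xirp1 and Clu were not analysed here. The 6 genes measured were Nppa, Nppb, Ankrd1, Xirp2, Ctf1 and Rcan1.

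RNA from hearts of C57BL/6 mice was hybridised to Illumina MouseWG-6 arrays, with 22 arrays in 10 groups that form 5 comparisons of knockout against control. With Nkx2.5::Cre, which is active in cardiac progenitors, hearts were taken at E9.5 (2 arrays a group, each a pool of 10 hearts) and at E11.5 (3 arrays a group). With αMHC::Cre, which is active in cardiomyocytes, the ages were E11.5, P0 and 6 weeks (2 arrays a group each). Control mice also carried Cre, together with 1 floxed Ronin allele, and knockout mice had both alleles floxed, so that the controls were heterozygous in the cells of the driver. The genotype field of the αMHC knockouts reads Nkx2.5::Cre, against their titles, and the titles decided their group here. Nothing in the labels says that the arrays of a group came from separate animals. In 6 of the 10 groups, though, the arrays differed over 3-fold in Xist, a marker of female tissue, and so did not all share 1 heart. The other groups were those of Nkx2.5 at E9.5 and of αMHC at E11.5. At E9.5 the paper pooled 10 hearts for each replicate, and Xist in a pool does not tell animals apart. In the αMHC groups at E11.5 the spread that the p-values measure may be technical.

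Cardiomyocytes secrete the peptides encoded by Nppa (ANP) and Nppb (BNP) when the wall of the heart is stretched. Both act through a receptor guanylyl cyclase to relax vessels and to promote salt excretion. Ventricular muscle expresses them strongly before birth, the ventricles lose most of the Nppa expression after birth while the atria keep it, and both genes return in a loaded or failing ventricle. Ankrd1 and Xirp2 encode proteins of the contractile apparatus that respond to stretch, Ctf1 a cytokine that promotes cardiomyocyte growth, and Rcan1 a feedback inhibitor of the phosphatase calcineurin.

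The probe intensities were linear values normalized by the authors, by their medians taken to be within each comparison, and the median intensity of an array lay between 58.2 and 108. Thap11 had in each knockout array 20.0% to 88.2% of the mean of its controls. At 6 weeks it stood at 1456 and 1438 in controls, against 290 and 772 in knockouts, and it fell there by 1.61 on the log2 scale (limma, adjusted p = 0.0410). Xist stood at 57.5 in control 1 and at 58.5 in knockout 1, and at 556 in control 2 and at 689 in knockout 2. Array 1 of each 6-week group therefore had low Xist and array 2 had high Xist. At αMHC E11.5 both controls had high Xist (1888 and 1989) and both knockouts low Xist (49.9 and 54.9), so that sex and genotype cannot be told apart in that comparison.

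The promoters of 4 of the genes are shown because they carry the ligands (Nppa, Nppb), the gene whose pattern was closest to that of Nppb (Ankrd1) and the gene with the largest change among the 6 genes at 6 weeks (Ctf1). Each is the RefSeq sequence of build GRCm38.p6 from 250 bases before to 50 bases after the start site in that table, and capitals mark matches to the motifs searched. Gene positions given with the results are of the same build. For Nppb and Ctf1 that gene span begins before the start site used here, so part of the window before the start lies within it. Nppa lies at chr4:148000472-148000771 (plus strand), Nppb at chr4:147985650-147985949 (plus strand), Ankrd1 at chr19:36119795-36120094 (minus strand) and Ctf1 at chr7:127712453-127712752 (plus strand).
Nppa: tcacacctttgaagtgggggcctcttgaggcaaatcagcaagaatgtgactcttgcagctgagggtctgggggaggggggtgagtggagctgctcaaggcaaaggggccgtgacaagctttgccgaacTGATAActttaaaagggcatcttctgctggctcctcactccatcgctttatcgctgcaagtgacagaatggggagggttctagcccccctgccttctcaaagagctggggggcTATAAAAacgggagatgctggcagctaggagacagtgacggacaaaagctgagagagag
Nppb: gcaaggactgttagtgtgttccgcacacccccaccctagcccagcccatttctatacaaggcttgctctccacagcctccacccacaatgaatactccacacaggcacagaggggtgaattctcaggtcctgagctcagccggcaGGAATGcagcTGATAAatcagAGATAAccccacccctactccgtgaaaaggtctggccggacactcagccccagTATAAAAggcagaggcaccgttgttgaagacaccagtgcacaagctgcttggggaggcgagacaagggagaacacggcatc
Ankrd1: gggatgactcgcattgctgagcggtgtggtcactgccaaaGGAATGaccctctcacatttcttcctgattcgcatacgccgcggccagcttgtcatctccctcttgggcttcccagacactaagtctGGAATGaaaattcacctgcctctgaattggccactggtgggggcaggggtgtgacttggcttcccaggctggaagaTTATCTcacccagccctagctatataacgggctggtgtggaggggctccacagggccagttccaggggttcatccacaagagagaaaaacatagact
Ctf1: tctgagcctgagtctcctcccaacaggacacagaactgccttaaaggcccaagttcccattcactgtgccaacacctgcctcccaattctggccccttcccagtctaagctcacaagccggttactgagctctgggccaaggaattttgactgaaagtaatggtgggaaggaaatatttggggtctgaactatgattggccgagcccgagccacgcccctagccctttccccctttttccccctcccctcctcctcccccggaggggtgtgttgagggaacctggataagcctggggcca

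The motifs, searched on both strands, were a pair of GATA factor sites, TGATAA and the variant AGATAA, the TEAD factor site CATTCC, the AP-1 site TGACTCA, the TATA box TATAAAA, the CArG box of serum response factor and the binding motif of Ronin. Nppa held TGATAA at 122 to 117 bases before the start and TATAAAA 9 to 3 bases before it. Nppb held 1 match to CATTCC on the reverse strand, both GATA factor sites and the TATA box, all within the 105 bases before the start. Ankrd1 held CATTCC at 2 places and AGATAA, all on the reverse strand. Of 32851 promoters of this length, 9.05% held TGATAA, 11.2% AGATAA, 14.7% CATTCC, 5.2% TGACTCA and 5.48% TATAAAA. Xirp2 held 1 TGACTCA, as did the window at the downstream start of Rcan1, and Ctf1 held no match to any motif. The Ronin motif (2.27% of promoters) and the CArG box (1.63%) matched in no window of the 6 genes, which says only that these letters were not within it. The paper does list Ctf1 among the genes bound by Ronin and its cofactor Hcf-1. It reports less of the histone mark H3K4me3 at Ctf1 in Nkx2.5 knockout hearts. Neither binding nor this mark was measured in the arrays used here.

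At 6 weeks in αMHC hearts, Rcan1 was higher and Ctf1 lower in the knockouts, and the 4 other genes had higher means in the knockouts without passing the test. All arrays and groups were fitted together with limma, and a gene was called at an adjusted p under 0.05. So 2 of the 6 genes were called, against 1.77% of the 11708 genes tested. Unadjusted, all 6 had a p under 0.05, against 10.6% of all genes, but they were named with earlier results of these data in view. Both knockout arrays were above both control arrays for 4 of the 6 genes (19.6% of all genes) and below both for 1 of the 6 (17.9% of all genes). The median difference of the 6 genes was 1.01 on the log2 scale, beside 0.02 over all genes tested.

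**Figure D1:**
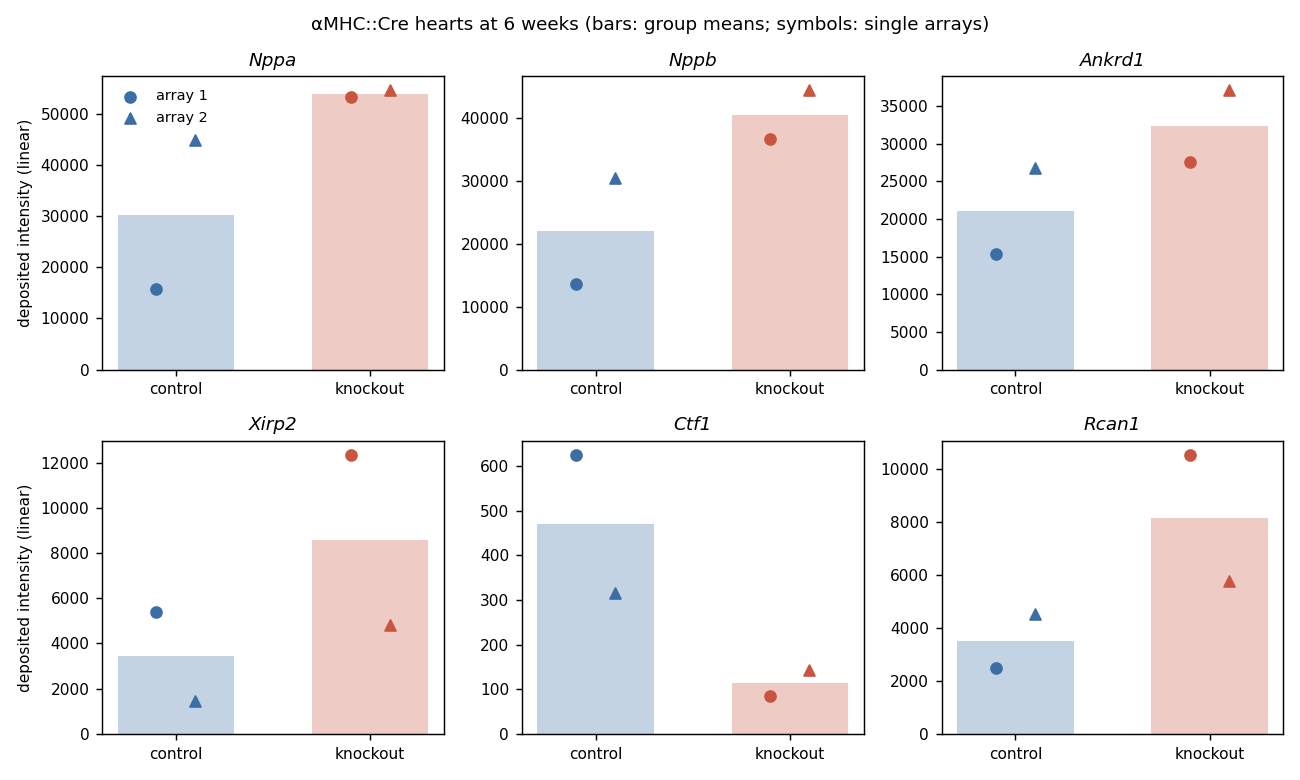
Deposited intensity (linear axis from 0) of the 6 genes in the 4 αMHC arrays at 6 weeks, 1 panel a gene, with bars for group means, circles for array 1 and triangles for array 2. Ctf1 lies lower in both knockout arrays, Nppa, Nppb, Ankrd1 and Rcan1 lie higher in both, and the arrays of Xirp2 overlap.

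Nppa (chr4:148000722-148002074) gives the precursor of ANP. At 6 weeks it stood at 15695 and 44913 in the controls, against 53256 and 54578 in the knockouts. Both knockout arrays were above both controls, but the controls differed among themselves more (2.86-fold) than control 2 differed from either knockout. The mean difference was 1.02 on the log2 scale (SE 0.33, 2.03-fold, 95% interval 0.33 to 1.71), and it did not pass the test (adjusted p = 0.152). Control array 2 decided this: without it the difference was 1.78 (adjusted p = 0.00512), and without control array 1 it was 0.26. With the array number as a block, which at 6 weeks coincides with low or high Xist, the same difference was called (adjusted p = 0.0191), as were 4.5% of all genes.

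The Nppa signal was also near the top of the range of the arrays. At 6 weeks it was the probe of rank 261 in control 1 and 37 in control 2, and of rank 19 and 5 in the knockouts, among the 45281 probes. In the P0 arrays it reached 98.1% to 100% of the highest intensity on the array. How far the top of the range limits its differences was not tested.

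Nppb (chr4:147985786-147987205) gives the precursor of BNP, a standard blood marker of heart failure. At 6 weeks its intensity was 13535 and 30483 in controls, against 36619 and 44374 in knockouts. As with Nppa, control 1 was the low array and control 2 came close to the knockouts. The mean difference was 0.99 (SE 0.43, 1.98-fold, 95% interval 0.10 to 1.88), which did not pass the test (adjusted p = 0.380). Without control array 1 it was 0.40, and without control array 2 it was 1.57.

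Ankrd1 (chr19:36111965-36119844) encodes CARP, which binds titin and also acts in the nucleus as a transcriptional cofactor. At 6 weeks it stood at 15298 and 26735 in controls, against 27544 and 37092 in knockouts. The lower knockout array was only slightly above the higher control array, and after quantile normalization slightly below it (14.75 against 14.76). The difference of the means was 0.66 on the log2 scale (SE 0.28, 1.58-fold, adjusted p = 0.352). A second probe, at 18464 and 24138 in controls against 25870 and 33939 in knockouts, gave a difference of 0.49 (adjusted p = 0.864).

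Xirp2 (chr2:67446000-67526620) encodes an actin-binding protein with Xin repeats, found at the intercalated disc. At 6 weeks it stood at 5399 and 1453 in controls, against 12343 and 4830 in knockouts. The groups overlapped, since control 1 was above knockout 2, and in both groups array 1, with low Xist, was the higher. The difference was 1.46 (SE 0.47, 2.76-fold, 95% interval 0.47 to 2.46, adjusted p = 0.156). Without knockout array 2 it was 2.14 (adjusted p = 0.0139), and the lowest value with an array left out was 0.52. With the array number as a block it was called (adjusted p = 0.00344), and 4 of the 6 genes were then called in all, namely Nppa, Xirp2, Ctf1 and Rcan1. The other 2 probes of Xirp2 were far dimmer, between 55.6 and 181 in these arrays. The brighter of them gave a difference of 0.23 (limma, adjusted p = 0.992 over all probes), and the dimmer was not tested.

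Ctf1 (chr7:127712676-127718188) encodes cardiotrophin-1, a cytokine of the interleukin-6 family that signals through gp130 and the LIF receptor. At 6 weeks its intensity was 625 and 315 in controls, against 83.8 and 142 in knockouts. Both knockout arrays were well below both controls, and knockout 1 was near the middle of its array, where 55.6% of probes were dimmer. Ctf1 fell by 2.02 on the log2 scale (SE 0.30, 4.06-fold lower, 95% interval -2.66 to -1.39, adjusted p = 0.00104). Knockout 1 lay in the range of the dimmest Rcan1 probe on these arrays (81.8 to 93.5), which was near background, so the size of the fall is read as a minimum. Without control array 1 the difference was -1.53 and was no longer called (adjusted p = 0.109).

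Rcan1 (chr16:92391951-92466169) encodes regulator of calcineurin 1, and 1 of its start sites is switched on by calcineurin itself through NFAT. At 6 weeks it stood at 2474 and 4510 in controls, against 10543 and 5779 in knockouts. Both knockouts were above both controls, with knockout 1 far above the rest. Rcan1 rose by 1.22 (SE 0.28, 2.34-fold, 95% interval 0.63 to 1.82, adjusted p = 0.0289). The call was lost without control array 1 (0.79, adjusted p = 0.972) and without knockout array 1 (0.79, adjusted p = 0.529).

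A second probe of Rcan1 stood at 304 and 1081 in controls, against 2024 and 1566 in knockouts at 6 weeks, a difference of 1.63 (adjusted p = 0.0860 over all probes). Its knockout arrays were again both above the controls. The third probe was near background, at 81.8 to 93.5. With the probes of the gene averaged, the difference was 1.00 (adjusted p = 0.0572).

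Compared within the arrays of like Xist signal, knockout minus control on the log2 scale was 1.76 for array 1 and 0.28 for array 2 for Nppa, and 1.44 and 0.54 for Nppb. It was 0.85 and 0.47 for Ankrd1 and 1.19 and 1.73 for Xirp2. It was -2.90 and -1.15 for Ctf1 and 2.09 and 0.36 for Rcan1. All 6 genes thus had the same sign in both arrays. For all but Xirp2 this had to follow, because their knockout and control arrays did not overlap. The share of all genes with the same sign was not counted. For the genes other than Xirp2 the difference was larger in array 1, where Xist was low. Thap11 was also lower in knockout 1 (290) than in knockout 2 (772). Each of the differences rests on 1 array against 1. Xist and the Thap11 level of the knockouts cannot be told apart here, and neither sex nor the extent of the Thap11 loss was tested as a cause.

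In the 4 younger comparisons no member was called by the fit without pairs. The share of all genes called was 0.495% in Nkx2.5 at E9.5, 0.49% in Nkx2.5 at E11.5, 0.0084% in αMHC at E11.5 and 0% at P0. At an unadjusted p under 0.05, 1 of 5 genes tested was found in Nkx2.5 at E11.5 (Nppb, with 8.5% of all genes) and 1 of 6 at P0 (Ctf1, with 4.21%). None of 5 was found in Nkx2.5 at E9.5 (4.75% of all genes) or in αMHC at E11.5 (4.39%). Xirp2 was tested only at P0 and at 6 weeks, because its probe was dimmer than the median probe at E9.5 and E11.5.

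**Figure D2:**
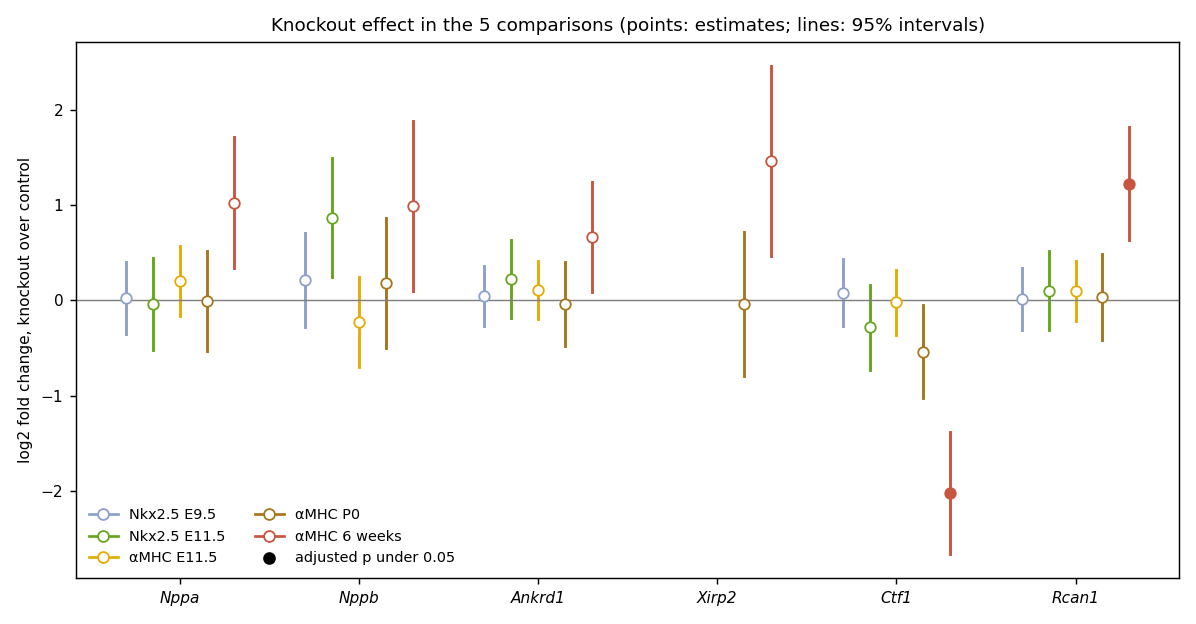
Knockout over control (log2 fold change) for each of the 6 genes, with 1 colour for each of the 5 comparisons, vertical lines for the 95% interval of the fit and filled points for an adjusted p under 0.05. Only Ctf1 (-2.02) and Rcan1 (1.22) at 6 weeks are filled, and Xirp2 has points only at P0 and 6 weeks.

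In Nkx2.5 hearts at E9.5 the differences of the 5 genes tested lay between 0.01 and 0.21. Nppa, for example, stood at 27809 and 35954 in the controls, against 28050 and 36986 in the knockouts, and control 1 and knockout 1 were both the lower arrays. In αMHC hearts at E11.5 they lay between -0.23 (Nppb) and 0.20 (Nppa). There Nppa stood at 48491 and 47064 in controls, against 53843 and 56097 in knockouts, and Nppb at 15631 and 15428 in controls, against 13301 and 13164 in knockouts. Both knockout arrays were above both controls for 3 of the 5 genes, Nppa, Ankrd1 and Rcan1 (14.7% of all genes). They were below both for 1, Nppb (17.8% of all genes). The differences of Nppa and Nppb had opposite signs, and neither passed the test (adjusted p = 1.00 for both).

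Nppb in Nkx2.5 hearts at E11.5 was the largest difference before 6 weeks. It stood at 5018, 7918 and 7747 in the controls, against 16000, 11660 and 9997 in the knockouts. All 3 knockout arrays were above all 3 controls (as for 4.14% of all genes), and knockout 1 was the highest. The difference was 0.87 (SE 0.30, 1.82-fold, adjusted p = 0.334) and was not called. With same-numbered arrays fitted as pairs, the adjusted p with that block was 0.0195 (4.13% of all genes were called). The labels do not tie these numbers to a shared source. Number 2 joined a control with high Xist (1018) to a knockout with low Xist (40.1), so the pairing is an assumption. The difference from the knockout effect in αMHC hearts of the same age was 1.10 (SE 0.37, adjusted p = 0.771).

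For Ctf1 the younger comparisons gave smaller differences, 2 of them with every knockout array below every control. Of all genes, 8.57% lay so in Nkx2.5 at E11.5 and 15.7% in αMHC at P0. In Nkx2.5 hearts at E11.5 it stood at 150, 139 and 125 in controls, against 122, 121 and 97.1 in knockouts, and at P0 at 324 and 289 in controls, against 219 and 203 in knockouts. The gap between the groups was narrow at E11.5 and wider at P0. The differences were -0.28 (adjusted p = 0.788) and -0.54 (SE 0.23, adjusted p = 1.00). At E9.5 the difference was 0.08, and in αMHC at E11.5 it was -0.02.

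With the 5 knockout effects averaged, Ctf1 was the only member called of 6 (1.66% of all genes were called). Its mean effect was -0.56 (SE 0.099, adjusted p = 0.00288), and it rested on the 6-week comparison, since the mean of the 4 others was -0.19 (adjusted p = 0.631). Without control array 2 of 6 weeks 3 genes were called, and without knockout array 2 of 6 weeks 2 were.

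The knockout effect of Ctf1 at 6 weeks was lower than that in αMHC hearts at E11.5 by 2.00 (SE 0.34, adjusted p = 0.00705), 1 of 6 genes in a test that called 0.812% of all genes. This call was lost without control array 1 of 6 weeks (adjusted p = 0.300) and without knockout array 1 (adjusted p = 0.0997). The same difference of effects was 1.13 for Rcan1 (adjusted p = 0.139), 1.22 for Nppb (adjusted p = 0.414), 1.44 for Xirp2 (adjusted p = 0.363), 0.82 for Nppa (adjusted p = 0.532) and 0.55 for Ankrd1 (adjusted p = 0.721). Against the effects at P0, where 0.263% of all genes were called, none of the 6 genes was called. There the differences of effects were -1.48 for Ctf1 (adjusted p = 0.155), 1.19 for Rcan1 (adjusted p = 0.272), 1.03 for Nppa (adjusted p = 0.519) and 1.50 for Xirp2 (adjusted p = 0.511). So, apart from Ctf1 against E11.5, the effects at 6 weeks were not shown to differ from those at the younger ages. Leaving out 1 array made calls here too: without control array 2 of 6 weeks Nppa differed from both ages (adjusted p = 0.0342 and 0.0412), without knockout array 2 so did Rcan1 (0.00706 and 0.0143), and Xirp2 then differed from E11.5 (0.0372) and Ctf1 from P0 (0.0129).

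For the course over development, the values of all arrays were quantile normalized together and control groups were compared. Age and comparison cannot be told apart here, because the values appear to have been normalized within each comparison. At E11.5, where 2 sets share an age, αMHC and Nkx2.5 controls differed in none of the 5 genes tested (10.4% of all genes were called). With median scaling or with the values as deposited, 4 of the 5 differed between those 2 sets, so changes with age depend on the scale.

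**Figure D3:**
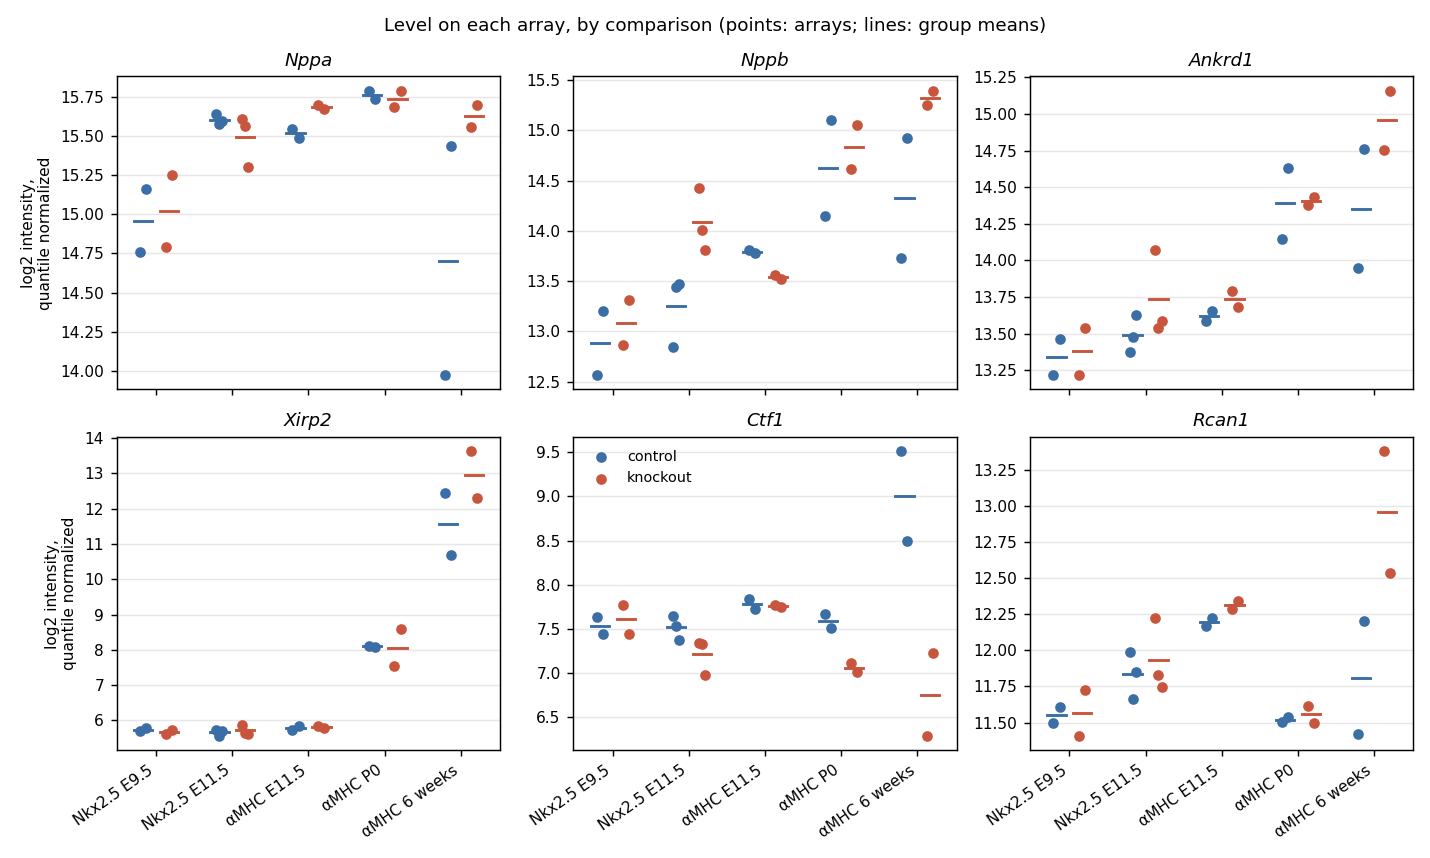
Quantile normalized level (log2 intensity) of the 6 genes in all 22 arrays, 1 panel a gene and a separate scale for each, with points for arrays, horizontal lines for group means, and blue for controls and red for knockouts. Xirp2 steps up at P0 and again at 6 weeks. By group mean Nppa is highest in the P0 controls and lowest in the 6-week controls, whose arrays lie far apart.

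Xirp2 had the steepest course of the 6 genes. It stood at 38.7 to 54.9 in all arrays of E9.5 and E11.5, at 435 and 433 in P0 controls and at 5399 and 1453 in 6-week controls. The ages did not overlap from E11.5 to P0 to 6 weeks. It was higher at 6 weeks than at P0 by 3.48 on the log2 scale (11.1-fold, adjusted p = 1.97e-06), and by 2.60 to 4.35 with 1 array left out. It was also higher at P0 than at E11.5 (2.30, adjusted p = 1.40e-06), where its probe was dimmer than the median probe, so that this step is read as a minimum.

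For Nppa the groups of E11.5 and P0 were close to each other. On the quantile scale these groups of E11.5 and P0 lay between 15.49 and 15.76, with the P0 controls highest, and most neighbours in this order overlapped. The 6-week controls were lowest by mean, at 14.70, but their arrays lay far apart (13.98 and 15.43). Control 2 was above every array of E9.5, so the low place rests on control 1. Nppa was 0.65 higher in Nkx2.5 controls at E11.5 than at E9.5 (adjusted p = 0.0168), the only 1 of 5 genes called in a contrast with 35.3% of all genes called, but the difference was 0.26 with the deposited values (adjusted p = 0.309). That call was also lost without any 1 of the 3 arrays of E11.5 (highest adjusted p = 0.0702) and without array 1 of E9.5 (adjusted p = 0.160). It fell by 1.06 from P0 to 6 weeks in αMHC controls (adjusted p = 0.00811), and without control array 1 of 6 weeks the difference was -0.33 (adjusted p = 0.522).

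Nppb and Ankrd1 were at their lowest in the E9.5 controls (12.88 and 13.34 on the quantile scale) and at their highest in the 6-week knockouts (15.32 and 14.96). For both genes the arrays of the 6-week knockouts did not overlap those of the next group by mean, the P0 knockouts. For Ankrd1, though, they overlapped their own controls, since knockout 1 of 6 weeks (14.75) lay slightly below control 2 (14.76). From E11.5 to P0 in αMHC controls Nppb rose by 0.83 (adjusted p = 0.0144) and Ankrd1 by 0.77 (adjusted p = 0.000820). Without control array 2 of P0 neither step was called (0.35, adjusted p = 0.401, and 0.53, adjusted p = 0.0561).

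Ctf1 was highest in the 6-week controls (9.00) and lowest in the 6-week knockouts (6.76), with all other groups between 7.06 and 7.78. It rose by 1.41 from P0 to 6 weeks in controls (2.66-fold, adjusted p = 0.000710), a step that was 0.53 with the deposited values (adjusted p = 0.0831) and 0.90 without control array 1 of 6 weeks (adjusted p = 0.0840). Rcan1 was highest in the 6-week knockouts (12.96) and lowest in the P0 controls (11.52). It fell by 0.68 from E11.5 to P0 (adjusted p = 0.00208), but with its probes averaged the difference was 0.15 (adjusted p = 0.425).

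Counted together, 4 of the 6 genes were called between P0 and E11.5 controls (3 higher and 1 lower, with 54.9% of all genes called) and 3 of the 6 between 6 weeks and P0 (2 higher and 1 lower, with 35.2% called). Between 6 weeks and E11.5, 4 of the 6 were called (3 higher and 1 lower, with 59% called). These shares were near those of all genes, and nothing is read from them. Without control array 1 of 6 weeks the last 2 counts were 1 and 2, and without control array 2 of P0 the first was 2.

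The 6-week knockouts were then set against younger controls. Against P0 controls 3 of the 6 genes differed (33.8% of all genes). Xirp2 was higher by 4.86 (adjusted p = 2.66e-08) and Rcan1 by 1.44 (adjusted p = 0.000157), and Ctf1 was lower by 0.84 on the log2 scale (adjusted p = 0.0297). The Ctf1 call was lost without knockout array 1 (-0.37, adjusted p = 0.453) or without either P0 control array. Nppa in the 6-week knockouts differed from P0 controls by -0.13 (SE 0.29, adjusted p = 0.772), and Nppb by 0.70 (adjusted p = 0.201). Without control array 2 of P0 the Nppb difference was 1.18 and was called (adjusted p = 0.0488), as was that of Ankrd1 (0.81, adjusted p = 0.0393).

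Against E11.5 controls 5 of the 6 genes differed (57.9% of all genes), namely Nppb (1.53, adjusted p = 0.00140), Ankrd1 (1.34, adjusted p = 5.50e-05), Rcan1 (0.76, adjusted p = 0.00694), Ctf1 (-1.02, adjusted p = 0.00231) and Xirp2. Without knockout array 1 the calls of Rcan1 (adjusted p = 0.293) and Ctf1 (adjusted p = 0.139) were lost, and with median scaling Rcan1 was at 0.33 (adjusted p = 0.206). Nppa differed by 0.11 (SE 0.27, adjusted p = 0.738). The Nppb level of the 6-week knockouts was thus above that of E11.5. For Nppa, whose probe was at 81.8% and 97.5% of the array maximum in these knockouts and higher still at P0, a likeness of levels cannot be read from the missing calls.

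The genes with a course most like 4 of these were ranked by Pearson's r over the 22 arrays, which share ages and the normalization of their comparison, among 14003 genes. For Nppb they were Ankrd1 (r = 0.947), Pafah1b1 (r = 0.943), Cdkn1a (r = 0.916) and Nmrk2 (r = 0.908). For Ankrd1 they were Cyb5r1 (r = 0.952), Nt5dc3 (r = 0.949), Nppb and Bcl2a1b (r = 0.945). The pair of natriuretic peptides was less alike (r = 0.444), and Nppa was closest to Kidins220 (r = 0.878), Sulf1 (r = 0.819), Olfr536 (r = 0.813) and App (r = 0.793). Ctf1 was closest to Casc1 (r = 0.876), Nudt12 (r = 0.827), Myorg (r = 0.818) and Olfr503 (r = 0.805).

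Around the 6 genes, the known partners of each pathway were counted at 6 weeks. Of the 58 list genes tested 1 was called at 6 weeks (1.72%), which is near the share of all genes, 1.77%, and none was called in the other comparisons.

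**Figure D4:**
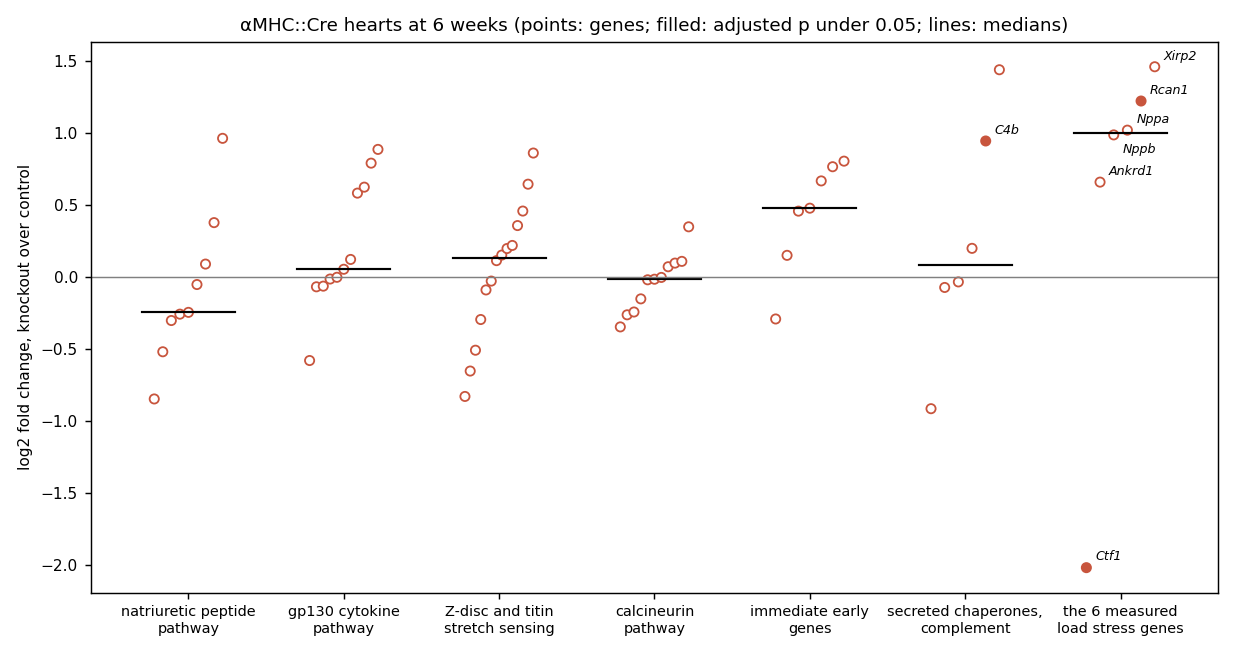
Knockout over control (log2 fold change) at 6 weeks, with 1 point for each tested gene of the 6 pathway lists and, in the last column, for the 6 measured genes, a black line for the median of each column and filled points for an adjusted p under 0.05. The medians of the lists run from -0.25 for the natriuretic pathway to 0.48 for the immediate early genes, and C4b is the only filled point among them.

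Of 13 genes that process, bind or clear natriuretic peptides, 9 were tested and none was called (median -0.25). Mme, the protease neprilysin that degrades the peptides, stood at 154 and 109 in controls, against 65.9 and 78.5 in knockouts, a difference of -0.85 (adjusted p = 0.0673). Both knockout arrays were below both controls. Npr3, the clearance receptor, stood at 126 and 259 in controls, against 550 and 226 in knockouts (0.96, adjusted p = 0.316), with overlap.

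Of the 15 genes of gp130 cytokine signalling, through which Ctf1 acts, 11 were tested, 6 were above 0 and none was called (median 0.05). Il6st, which encodes gp130, stood at 547 and 958 in controls, against 1472 and 1220 in knockouts (0.89, adjusted p = 0.147). Osmr, the oncostatin M receptor, stood at 230 and 351 in controls, against 709 and 342 in knockouts (0.79, adjusted p = 0.279). For Il6st both knockout arrays were above both controls, and for Osmr knockout 2 was within the controls.

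Of the 15 genes of the Z-disc and of titin-based stretch sensing, 14 were tested and none was called (median 0.13). Flnc, a filamin of the Z-disc, stood at 3898 and 5249 in controls, against 11185 and 6049 in knockouts (0.86, adjusted p = 0.239). Fhl1, which binds titin, stood at 5097 and 5285 in controls, against 12808 and 5150 in knockouts (0.65, adjusted p = 0.419). In both genes knockout 1 was the array that stood out, as for Rcan1 and Xirp2.

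Of the 13 genes of calcineurin signalling 11 were tested and none was called (median -0.02). Rcan2, a relative of Rcan1 with the same inhibitory role, stood at 9580 and 10383 in controls, against 8135 and 7559 in knockouts (-0.35, adjusted p = 0.769). Nfatc3, a transcription factor that calcineurin activates, stood at 716 and 720 in controls, against 550 and 651 in knockouts (-0.26, adjusted p = 0.849). Both genes were lower in both knockout arrays, opposite in sign to Rcan1.

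Of 8 immediate early genes, which respond within a short time to stretch and growth signals, 7 were tested, 6 lay above 0 and none was called (median 0.48). Junb stood at 318 and 264 in controls, against 705 and 300 in knockouts (0.67, adjusted p = 0.621). Egr1 stood at 1198 and 742 in controls, against 2089 and 1302 in knockouts (0.81, adjusted p = 0.657). Knockout 1 was again the highest array for both.

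Of 9 secreted chaperone and complement genes, the class to which Clu belongs, 6 were tested and 1 was called (median 0.08). C4b, complement component 4, stood at 118 and 176 in controls, against 325 and 238 in knockouts, and rose by 0.95 (adjusted p = 0.0175).

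Markers of the tissue were set beside these results, since in bulk tissue fewer cells of a type and less RNA per cell cannot be told apart. The labelled tissue was borne out by cardiomyocyte markers, which summed at 6 weeks to 155057 and 146456 in controls and to 181200 and 151989 in knockouts, and none of 6 was called. Atrial markers matter for Nppa, which adult atria express strongly. They summed to 5684 and 9533 in controls and to 6413 and 3267 in knockouts, with 1 of 5 tested above 0 and 1 lower (median -0.68). That gene was Stard10, at 1790 and 1015 in controls, against 288 and 664 in knockouts (-1.62, adjusted p = 0.0376).

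Within the controls, array 2 was the higher in both the atrial markers and Nppa, and within the knockouts array 2 was the lower in the atrial markers while Nppa was alike. Ventricular markers summed to 87315 and 102705 in controls and to 109815 and 107689 in knockouts, with none of 4 called. Fibroblast markers summed to 15806 and 19886 in controls and to 18226 and 23678 in knockouts, with 5 of 5 above 0 and none called. None of the endothelial, smooth muscle, macrophage, erythroid, skeletal muscle, fat or epicardium markers tested was called at 6 weeks. Several of these lists were barely measured, with 2 of 3 smooth muscle, 2 of 4 skeletal muscle, 1 of 4 fat and 1 of 3 epicardium markers tested. The part of these cell types in the levels of Nppa and the other genes was not tested.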

How the data were processed

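RNA of 22 mouse heart samples was hybridised to Illumina MouseWG-6 v2.0 arrays. The values are the deposited probe intensities, which the authors normalized by cubic spline in GenePattern. Array medians were alike within a comparison only, so the normalization was taken to be within comparisons. A non-normalized table was not used, because the numbers of its 22 columns match no sample label.

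The intensity values were taken to log2, and contrasts of ages used quantile normalization of the 22 arrays together. Probes were named by the platform annotation (34885 with 1 gene, 18 with several, 10378 with none). The probe with the highest mean stood for a gene, and a gene was tested where that probe lay above the median probe. Group means of all 22 arrays were fitted with limma 3.58.1 (R 4.3.3, statmod 1.5.0) with array weights for each comparison (0.533 to 1.90) and an intensity trend (12 residual and 6.80 prior degrees of freedom). P-values were adjusted by Benjamini-Hochberg over all genes tested in a contrast, at a threshold of 0.05. The number of arrays limits the precision: an exact permutation test of 2 against 2 arrays cannot go below 0.333. The fit was also run on data simulated with independent errors from its own spreads and array weights. Such data meet its assumptions, so the run does not show how it behaves on the real arrays. Figures were drawn with matplotlib 3.10.9 (Python 3.11.15).

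The members and gene lists were chosen with earlier results of these data known. The text names all members with all their probes, the called genes of each list or, where none was called, the 2 with the lowest p at 6 weeks, and the 4 genes most like a member. Replicate numbers were checked as pairs by the correlation of deviations from group means. In Nkx2.5 hearts at E11.5, the comparison with 3 pairs, they were 0.438, 0.613 and 0.520. The block treats the numbers as pairs there, but the labels do not say so and other matchings were not compared. Alternatives were equal weights, each comparison alone, other normalizations, averaged probes, the replicate block, the methods' t-test and leaving out each array. The mean of the comparisons other than 6 weeks was added after the values were seen.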

Additional observations from a re-analysis of the deposited data

Results flagged for a closer look

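In the fit of all arrays, the knockout effect on Ctf1 in αMHC hearts was more negative at 6 weeks than at E11.5, by -1.9987 on the log2 scale (SE 0.34, limma, adjusted p = 0.00705), with both knockout arrays below both controls at 6 weeks and the arrays overlapping at E11.5. The call was lost without control array 1 of 6 weeks (adjusted p = 0.300) and without knockout array 1 (adjusted p = 0.0997). At E11.5 both controls had high Xist (1888 and 1989) and both knockouts low Xist (49.9 and 54.9), so sex and genotype cannot be told apart in the effect it was set against.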

How the results depend on the processing

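With 2 arrays in most groups, single arrays and the way the spread is pooled decide most calls. At 6 weeks 2 genes were called. None was called with each comparison fitted alone (Ctf1 -2.02, adjusted p = 0.262; Rcan1 1.22, adjusted p = 0.435) or with the methods' t-test, which gave 0 calls before adjustment (unadjusted p of 0.0837 and 0.184) and 0 after Benjamini-Hochberg (adjusted p = 0.895 for both). Quantile normalization left 1 (Rcan1 1.14, adjusted p = 0.0523), and with probes averaged Rcan1 was 1.00 (adjusted p = 0.0572) and Xirp2 0.55 (adjusted p = 0.0429). The replicate block gave 4 calls, with Nppa at 1.02 (adjusted p = 0.0191) and Xirp2 at 1.46 (adjusted p = 0.00344), with 2 pairs only, numbers that the labels do not tie to a shared source, low Xist in both arrays 1 and high Xist in both arrays 2, and a correlation of the deviations of 0.352. It gave 2 calls in place of 1 for 6 weeks against E11.5 (Xirp2, adjusted p = 0.0230) and 1 in place of 0 in Nkx2.5 hearts at E11.5. Unadjusted, the methods' t-test gave 2 calls in αMHC at E11.5, 1 at P0 and 1 in Nkx2.5 at E11.5, where the fit called 0. The mean effect of Ctf1 without 6 weeks, added after the data were seen, was -0.19 (0 calls in place of 1).

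Between ages, the count for Nkx2.5 controls fell from 1 to 0 with deposited values, equal weights or median scaling, and that for the 2 sets of E11.5 controls went from 0 to 4 with deposited values or median scaling. Signs turned for Ankrd1 in 6-week knockouts against P0 controls (-0.053 with deposited values), Ankrd1 in controls from P0 to 6 weeks (0.12 with probes averaged), Nppa in 6-week knockouts against P0 controls (0.13 with median scaling) and Rcan1 in controls from E11.5 to P0 (0.15 with probes averaged). None of these 4 alternative values passed the test.

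With 1 array left out at a time, the 6-week differences ran from -2.52 to -1.53 for Ctf1, 0.79 to 1.66 for Rcan1, 0.26 to 1.78 for Nppa, 0.40 to 1.57 for Nppb, 0.26 to 1.06 for Ankrd1 and 0.52 to 2.41 for Xirp2, and the mean effect of Ctf1 from -0.66 to -0.46. Ankrd1 in controls from P0 to 6 weeks ran from -0.44 to 0.37. Counts of called genes ran from 0 to 3 at 6 weeks, 1 to 3 for the mean effect, 0 to 3 and 0 to 2 for 6 weeks against E11.5 and P0, 3 to 5 and 2 to 4 for the 6-week knockouts against E11.5 and P0 controls, 2 to 4 for controls of 6 weeks against E11.5, 1 to 3 against P0, 2 to 4 for P0 against E11.5 and 0 to 1 for E11.5 against E9.5. The causes were not tested. Of the alternatives other than left-out arrays, 249 values were alike. These were effects that kept their direction and side of the threshold, and counts of called genes that stayed equal or close. Of the other effects 19 lost a call, 10 gained one and 4 turned sign, and 16 counts moved further.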
